A study of Mus musculus with 12 samples.

Results

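The genes described are those of mitochondrial protein import and processing, taken by name: every mouse gene whose symbol starts with Timm or Tomm, together with Immp1l, Immp2l, Pmpca, Pmpcb, Grpel1, Chchd4, Samm50, Mtx1, Mtx2, Pam16 and Gfer. The rule finds 38 genes in the annotation. Of these, 35 were listed for all 12 libraries, among 12866 such genes in the series, and all 35 passed the limit on low values and were tested, among 11509 genes tested. Timm8a2, Tomm20l and Tomm6os were not listed for all libraries and have no value here. The hearts came from wild-type C57BL/6 mice in 3 groups of 4. LPS+XJDHT mice received lipopolysaccharide at 10 mg/kg and Xijiao Dihuang decoction at 50 mg/kg/day, LPS mice had the same dose of lipopolysaccharide (10 mg/kg) with saline, and Control mice received saline in place of both, all over 3 days. Lipopolysaccharide is the endotoxin of Gram-negative bacteria, and Xijiao Dihuang decoction is a traditional Chinese herbal formula. All mice carried the same unmodified genotype, and neither their age nor their sex is stated in the labels.

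Nearly all mitochondrial proteins are made in the cytosol and threaded into the organelle. The TOM complex is the common entry pore of the outer membrane, with receptors that read targeting signals on the incoming protein; behind it, small TIM chaperones escort membrane proteins across the intermembrane space, TIM22 inserts carriers into the inner membrane, and TIM23 with its ATP-driven motor pulls in proteins that carry a presequence. Peptidases in the matrix and the inner membrane then cut the targeting signals off. In heart muscle, which depends on oxidative phosphorylation, this route supplies the respiratory chain.

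The libraries held 73.8 to 77.8 M fragments (M, mega), recovered from the spacing of the deposited values. Expression is given in FPKM, fragments scaled by transcript length and library size, summed over the annotated transcripts of a gene, so that levels of different genes can be set side by side. The median library held 467 fragments for the member with the fewest and 11945 for the member with the most. Cardiomyocyte markers, 8 of 8 listed, summed to 5853 to 8432 FPKM in LPS+XJDHT, 6461 to 8351 FPKM in LPS and 14536 to 16271 FPKM in Control hearts, so heart muscle RNA was abundant in all groups; 4 of the 8 fell in LPS against Control. Neutrophil markers stood at 74.7 to 151 FPKM in LPS+XJDHT, 78.8 to 117 FPKM in LPS and 1.23 to 2.72 FPKM in Control, with Ly6g not listed, and fibroblast markers at 683 to 1070 FPKM in LPS+XJDHT, 763 to 1005 FPKM in LPS and 405 to 501 FPKM in Control. Erythroid markers stood at 125 to 253 FPKM in LPS+XJDHT, 238 to 803 FPKM in LPS and 1275 to 1379 FPKM in Control, and 3 of 5 fell in LPS against Control. Monocyte and macrophage markers summed to 66.3 to 139 FPKM in LPS+XJDHT, 61.4 to 193 FPKM in LPS and 133 to 213 FPKM in Control, although 3 of the 6 tested rose in LPS and none fell. The part that these shifts have in the values below was not tested, and in whole tissue fewer cells of a type and less RNA per cell cannot be told apart. One library stands apart: in LPS+XJDHT mouse 2 the summed level of 4 genes of the Y chromosome was 0.205 FPKM, against 20.4 to 61.9 FPKM in the other 11, while the female marker Xist is not among the genes listed.

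Promoters of 4 of the members that moved in the same direction in both groups given lipopolysaccharide show how their gene starts are built. Timm8b moved so too, and its promoter is not shown. The 4 stretches below are the 250 bases upstream of the start of 2 receptors whose RNA was higher than in Control (Tomm20 and Tomm70a) and of 2 genes whose RNA was lower (Pmpcb and Timmdc1), from the RefSeq promoter table of build GRCm38.p6, each written 5′ to 3′ on the strand of its gene. They lie at chr8:126945922-126946171 on the minus strand, chr16:57121464-57121713 on the plus strand, chr5:21736910-21737159 on the plus strand and chr16:38522664-38522913 on the minus strand, in the same order. Capitals mark matches, on either strand, to the NRF1 motif, GCGCA and GCGC with any 1 base between them (in Tomm20), or to the ETS core CCGGAAG (in the other 3), both of which are known from promoters of nuclear genes for mitochondrial proteins.
Tomm20: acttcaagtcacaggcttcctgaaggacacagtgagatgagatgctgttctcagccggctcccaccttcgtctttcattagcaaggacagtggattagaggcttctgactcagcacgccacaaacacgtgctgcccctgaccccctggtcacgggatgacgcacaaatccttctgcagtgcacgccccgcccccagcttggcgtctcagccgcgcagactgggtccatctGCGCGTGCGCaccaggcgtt
Tomm70a: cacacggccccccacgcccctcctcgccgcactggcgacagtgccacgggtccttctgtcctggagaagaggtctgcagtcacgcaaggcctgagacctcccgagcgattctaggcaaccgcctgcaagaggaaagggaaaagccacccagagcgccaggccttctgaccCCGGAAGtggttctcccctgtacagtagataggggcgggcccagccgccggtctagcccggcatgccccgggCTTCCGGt
Pmpcb: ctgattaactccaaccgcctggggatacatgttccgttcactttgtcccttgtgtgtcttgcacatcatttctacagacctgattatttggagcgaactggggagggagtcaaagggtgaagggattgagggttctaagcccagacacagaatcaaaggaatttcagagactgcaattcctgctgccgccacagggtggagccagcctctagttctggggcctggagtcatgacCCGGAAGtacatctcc
Timmdc1: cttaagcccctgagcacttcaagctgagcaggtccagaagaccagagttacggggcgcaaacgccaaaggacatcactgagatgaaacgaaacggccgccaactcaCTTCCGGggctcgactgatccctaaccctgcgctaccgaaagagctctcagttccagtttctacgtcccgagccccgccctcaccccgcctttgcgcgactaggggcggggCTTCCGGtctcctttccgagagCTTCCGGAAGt

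The ETS core matched in 13 of the 32 tested members that the table holds (40.6%), and in 16.1% of the 8399 tested genes with a promoter there. The NRF1 motif matched in 3 of the 32 (9.38%), namely Chchd4, Pam16 and Tomm20, and in 9.42% of the 8399. Over all 32851 promoters of the table, the ETS core matched in 6.91% and the NRF1 motif in 3.74%. ETS matches stood both before genes that were higher than in Control (Tomm70a, Grpel1) and before genes that were lower (Pmpcb, Timmdc1, Timm8b). The matches describe letters in a window, the shares were not tested against each other, and of the 4 ETS matches in Timmdc1 the last 2 share bases. Tomm40l, Tomm7 and Timm21 are not in the table.

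Whether endotoxin changes the heart's import genes was addressed by comparing LPS with Control. The set moved in both directions. Tomm20 and Tomm70a, 2 receptors of the entry gate, and Grpel1, the nucleotide exchange factor of the import motor, rose. Timm21, Timmdc1, Tomm40l, Pmpcb, Immp1l, Timm8b and Timm22 fell. These 10 of 35 members are 28.6%, beside 38.6% of all 11509 genes tested (limma on log2(FPKM + 1), Benjamini-Hochberg adjusted p below 0.05 over all genes). By direction, 26.6% of all genes rose and 12% fell. The median log2 fold change of the members was -0.00, beside 0.16 for all genes tested. When libraries were rescaled so that the median gene stood level (median-ratio scaling, all-gene median 0.01), 1 member rose and 11 fell, with a median of -0.20, beside 18.6% of all genes that rose and 18.4% that fell. The levels of the 2 groups did not overlap for 5 members higher in LPS and 6 lower, beside 25.3% and 12.1% of all genes. Leaving out any 1 of Control 1 to 4 or LPS 1 left 1 member that rose, and leaving out Control 1, Control 3 or LPS 2 left 4 that fell.

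**Figure D1:**
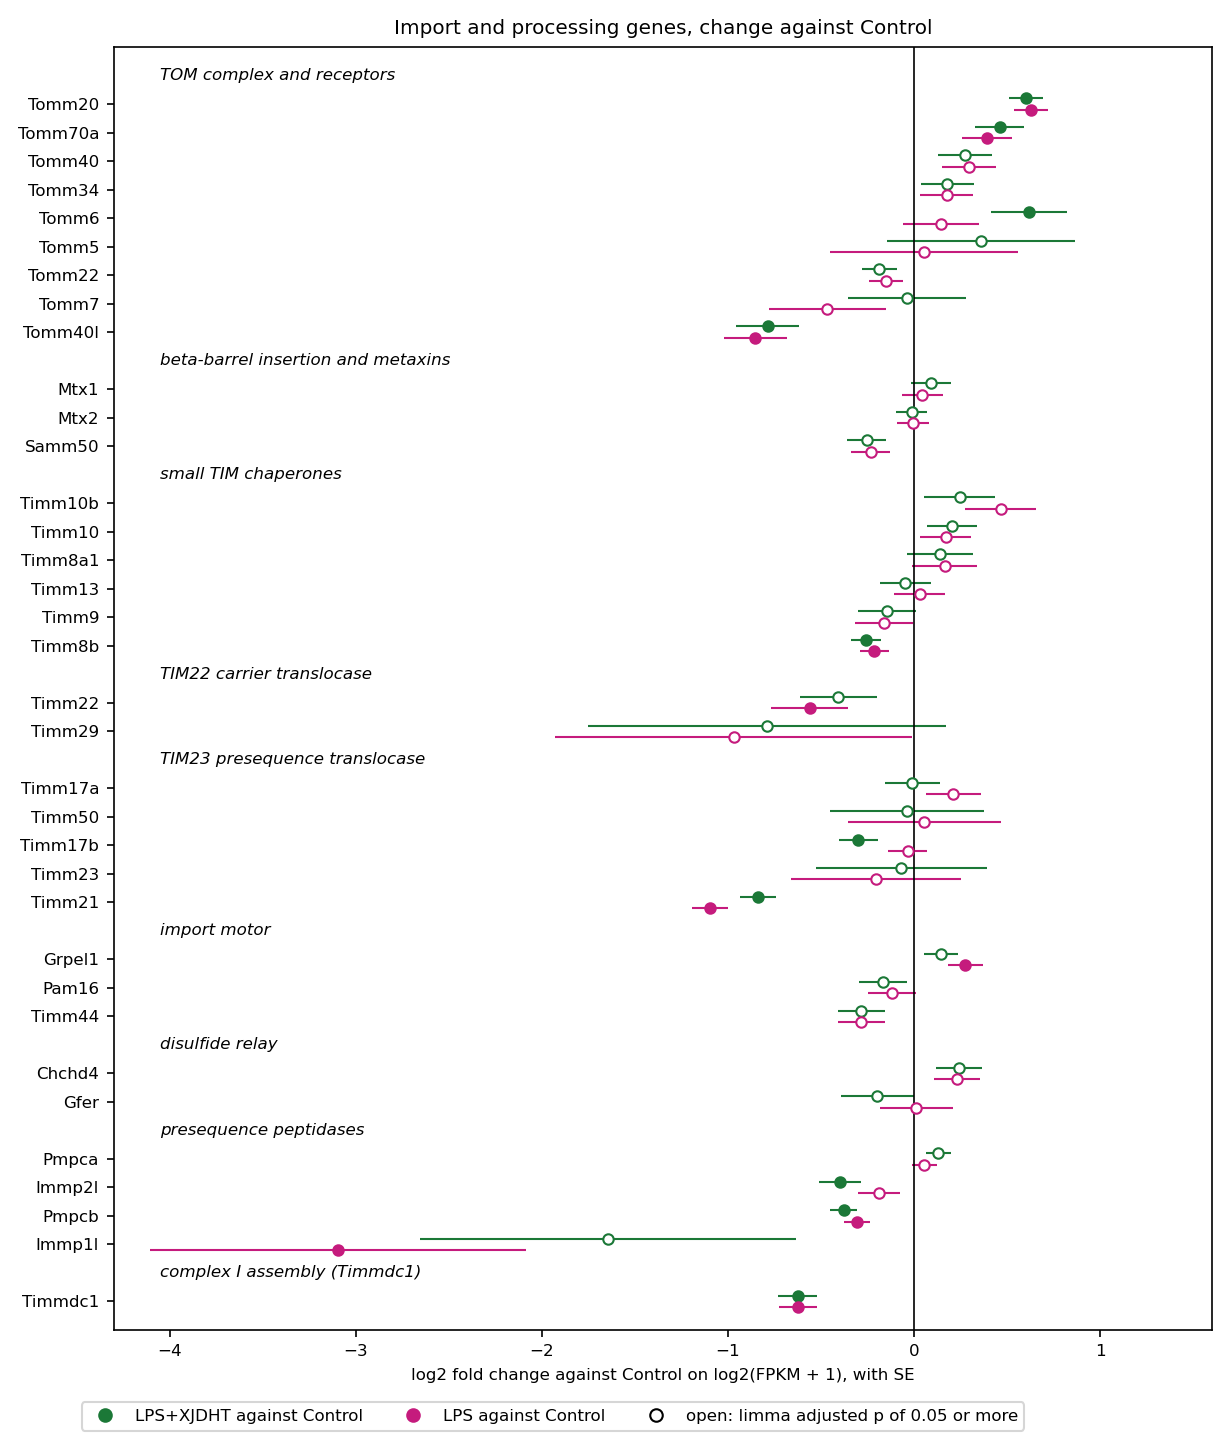
Log2 fold change against Control, with its SE, for the 35 tested members grouped by role, on the log2(FPKM + 1) scale; upper points are LPS+XJDHT, lower points LPS, and filled points have a limma adjusted p below 0.05. Tomm20 and Tomm70a lie on the right, Timm21, Tomm40l and Timmdc1 on the left in both comparisons, and Immp1l and Timm29 carry the widest errors.

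At the outer membrane, Tomm20 and Tomm70a were higher than in Control and Tomm40l was lower. Tomm20, the receptor for presequences, on chromosome 8 (126930667 to 126945844, minus strand, GRCm38), had 18.3, 17.4, 18.1 and 17.7 FPKM in LPS+XJDHT hearts and 19.8, 20.6, 17.1 and 16.0 FPKM in LPS hearts, against 11.4, 11.5, 10.9 and 12.04 FPKM in Control hearts. All 8 hearts given lipopolysaccharide lay above all 4 Control hearts. Its log2 fold change for LPS against Control was 0.63 ± 0.09 (SE, limma adjusted p = 0.00027). Tomm70a, the receptor for carrier precursors, on chromosome 16 (57121703 to 57156705, plus strand), had 33.4, 38.7, 25.5 and 27.2 FPKM in LPS+XJDHT, 31.3, 33.7, 26.0 and 26.9 FPKM in LPS and 23.3, 20.3, 22.4 and 22.6 FPKM in Control. The groups given lipopolysaccharide again did not overlap with Control, but each holds a higher and a lower pair of hearts. The log2 fold change for LPS was 0.39 ± 0.13 (limma adjusted p = 0.035); the call was lost under median-ratio scaling (0.20, limma adjusted p = 0.25) and without any 1 of Control 1 to 4, LPS 1 or LPS 2 (limma adjusted p 0.054 to 0.089).

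Tomm40l, a paralog of the pore protein Tomm40, on chromosome 1 (171216011 to 171222514, minus strand), had 8.47, 11.9, 7.48 and 10.9 FPKM in LPS+XJDHT, 7.07, 7.89, 11.9 and 10.1 FPKM in LPS and 16.1, 16.6, 17.7 and 18.5 FPKM in Control. Every heart given lipopolysaccharide was below every Control heart, and the log2 fold change for LPS was -0.85 ± 0.17 (limma adjusted p = 0.0021). Of its exon bases, 64.3% overlap Nr1i3 on the other strand; the sources used here do not say whether counting used strand, and Nr1i3 itself stayed below 1 FPKM in all 12 libraries. Tomm40, the pore itself, had 22.9, 26.2, 14.3 and 18.4 FPKM in LPS+XJDHT, 19.5, 20.9, 19.5 and 21.2 FPKM in LPS and 16.2, 16.2, 16.4 and 16.6 FPKM in Control. The LPS hearts lay above Control without overlap, and the difference did not pass the threshold (log2 fold change 0.29 ± 0.15, limma adjusted p = 0.13). The small pore subunits Tomm5, Tomm6 and Tomm7, the central receptor Tomm22 and the cytosolic co-chaperone Tomm34 did not pass it either, with log2 fold changes between -0.47 and 0.17.

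Among beta-barrel insertion genes, Samm50, the channel of the sorting and assembly machinery, and its metaxin partners Mtx1 and Mtx2 did not pass the threshold as gene sums. Samm50 had 35.6, 38.6, 41.2 and 36.1 FPKM in LPS+XJDHT, 41.5, 35.2, 36.8 and 40.2 FPKM in LPS and 44.4, 37.8, 52.0 and 48.2 FPKM in Control (LPS against Control -0.23 ± 0.10 on the log2 scale, limma adjusted p = 0.096). Control 2 lay within the range of the other groups, and the 3 other Control hearts above it. Mtx1 and Mtx2 had log2 fold changes of 0.04 and -0.00.

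Of the 6 small TIM chaperones measured, 1 fell. Timm8b, which forms a chaperone with Timm13 for inner membrane precursors, on chromosome 9 (50603910 to 50605320, plus strand), was the most abundant member of the whole set by its mean over the 12 libraries, 77.0 FPKM. It had 72.9, 67.3, 73.7 and 71.8 FPKM in LPS+XJDHT, 64.4, 76.8, 73.9 and 80.7 FPKM in LPS and 86.6, 86.8, 89.4 and 80.1 FPKM in Control. The highest LPS heart, LPS 4, lay just above the lowest Control heart, Control 4. Its log2 fold change for LPS, -0.21 ± 0.08, passed at a limma adjusted p of 0.04996 and was lost in 14 of 21 alternatives, 10 of them the removal of 1 library (every one but LPS 4 and Control 4, limma adjusted p 0.052 to 0.13). Under median-ratio scaling it was -0.41 and passed. Of the Timm8b exon bases, 15.6% overlap Nkapd1 on the other strand, and the part of Nkapd1 in these values was not tested. Timm9, Timm10, Timm10b, Timm13 and Timm8a1, the other measured chaperones of this class, had log2 fold changes between -0.16 and 0.47 and did not pass.

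At the inner membrane, Timm22, the channel of the carrier translocase, on chromosome 11 (76406952 to 76416292, plus strand), had 4.79, 3.82, 2.59 and 4.05 FPKM in LPS+XJDHT, 3.78, 3.57, 2.36 and 3.49 FPKM in LPS and 4.63, 4.18, 8.22 and 4.83 FPKM in Control. The LPS and Control hearts did not overlap, and Control 3 stood far above the other Control hearts. The log2 fold change for LPS of -0.56 ± 0.21 (limma adjusted p = 0.04996) was lost in 17 of 20 alternatives. Removal of 1 library ended the call in 10 cases, every one but Control 2 and LPS+XJDHT 3, with log2 fold changes of -0.62 to -0.38 and limma adjusted p of 0.052 to 0.13. Its partner Timm29 did not pass.

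Timm21, the TIM23 subunit that bridges to the TOM complex and passes proteins on to the respiratory chain, had the smallest p of the set in both comparisons with Control. The gene, on chromosome 18 (84946191 to 84951524, minus strand), had 10.6, 12, 11.6 and 10.4 FPKM in LPS+XJDHT, 8.40, 8.36, 11.0 and 9.08 FPKM in LPS and 21.1, 20.1, 20.8 and 20.9 FPKM in Control. The Control hearts lay close to each other and all hearts given lipopolysaccharide far below them. Its log2 fold change for LPS was -1.10 ± 0.10 (limma adjusted p = 9.3e-06). The channel Timm23, its paralogous partners Timm17a and Timm17b and the receptor Timm50 did not pass, with log2 fold changes between -0.21 and 0.21.

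In the motor that pulls precursors into the matrix, Grpel1, on chromosome 5 (36464998 to 36474080, plus strand), had 23.0, 24.2, 19.3 and 20.9 FPKM in LPS+XJDHT, 24.4, 26.3, 21.0 and 24.5 FPKM in LPS and 20.0, 19.5, 19.6 and 19.5 FPKM in Control. LPS hearts did not overlap with Control, LPS+XJDHT hearts did. The log2 fold change for LPS of 0.27 ± 0.09 (limma adjusted p = 0.035) was lost under median-ratio scaling (0.08, limma adjusted p = 0.52) and without any 1 of Control 1 to 4, LPS 1, LPS 2 or LPS 4 (limma adjusted p 0.063 to 0.079). Of the Grpel1 exon bases, 11.6% overlap Tada2b on the other strand. Tada2b changed by 0.36 ± 0.18 for LPS and 0.40 ± 0.18 for LPS+XJDHT against Control (limma adjusted p = 0.13 and 0.094). Its part in the Grpel1 values was not tested. Pam16, a regulator of the motor's J-domain protein, had 24.3, 25.1, 25.0 and 23.2 FPKM in LPS+XJDHT, 22.1, 20.6, 34.3 and 26.1 FPKM in LPS and 28.3, 27.5, 26.5 and 27.9 FPKM in Control, and LPS 3 was the highest of all 12. Neither Pam16 nor Timm44, which anchors the motor to the channel, passed (log2 fold changes -0.12 and -0.28).

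The disulfide relay oxidises small proteins as they arrive in the intermembrane space. Its oxidoreductase Chchd4 had 9.59, 9.88, 6.89 and 7.34 FPKM in LPS+XJDHT, 7.43, 9.44, 8.01 and 8.24 FPKM in LPS and 6.94, 7.04, 7.13 and 6.47 FPKM in Control. All LPS hearts were above all Control hearts, yet the change of 0.23 ± 0.12 on the log2 scale had a limma adjusted p of 0.16. Gfer, the sulfhydryl oxidase that reoxidises Chchd4, had a log2 fold change of 0.01.

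Among the presequence peptidases, Pmpcb and Immp1l fell. Pmpcb, the catalytic subunit of the matrix processing peptidase, on chromosome 5 (21737141 to 21757152, plus strand), had 49.0, 42.4, 43.6 and 44.3 FPKM in LPS+XJDHT, 48.1, 42.9, 48.6 and 49.1 FPKM in LPS and 59.6, 57.5, 59.0 and 58.0 FPKM in Control. The 8 hearts given lipopolysaccharide all lay below the 4 Control hearts, which differed little among themselves. The log2 fold change for LPS was -0.31 ± 0.07 (limma adjusted p = 0.0057). Pmpca, its partner subunit that recognises the substrate, averaged 39.6 ± 1.70 FPKM in LPS+XJDHT, 37.6 ± 1.92 FPKM in LPS and 36.1 ± 0.236 FPKM in Control (SD, n = 4 each) and did not pass. Of the Pmpca exon bases, 20.4% overlap Inpp5e on the other strand. Inpp5e, at 0 to 4.75 FPKM over the libraries, changed by -0.92 ± 0.36 for LPS against Control (limma adjusted p = 0.064). Its part in the Pmpca values was not tested.

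Immp1l, a catalytic subunit of the inner membrane peptidase, on chromosome 2 (105904638 to 105965558, plus strand), had the widest spread. It had 14.5, 24 and 22.0 FPKM in LPS+XJDHT hearts 1, 2 and 4 and was listed at 0 in heart 3, had 17.3, 0.628, 0.433 and 2.73 FPKM in LPS hearts, and 37.2, 26.9, 29.6 and 25.0 FPKM in Control hearts. Every heart given lipopolysaccharide was below Control, with LPS 1 nearer to LPS+XJDHT hearts 1, 2 and 4 than to the other LPS hearts. The log2 fold change for LPS, -3.09 ± 1.01 (limma adjusted p = 0.030), was lost in 9 of 21 alternatives, among them the removal of any 1 of Control 1 to 4, LPS 2, LPS 3 or LPS 4 (-3.17 to -2.66, limma adjusted p 0.053 to 0.079). The processed pseudogene Gm8121 is 99.0% identical to Immp1l over 499 bases and was listed at 9.07 to 13.1 FPKM in LPS+XJDHT, 9.40 to 12.7 FPKM in LPS and 9.22 to 18.9 FPKM in Control, so the split of reads between the 2 is uncertain.

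Timmdc1 carries a Timm symbol but its protein is an assembly factor of respiratory complex I. On chromosome 16 (38498347 to 38522663, minus strand), it had 13.5, 12.2, 11.3 and 11.7 FPKM in LPS+XJDHT, 11.4, 10.6, 13.9 and 12.9 FPKM in LPS and 18.9, 17.3, 20.3 and 20.6 FPKM in Control. Both groups given lipopolysaccharide lay wholly below Control and over each other. The log2 fold change for LPS was -0.62 ± 0.10 (limma adjusted p = 0.00070). The calls of Tomm20, Tomm40l, Timm21, Pmpcb and Timmdc1 held in both comparisons with Control under every alternative run on the gene sums. Median-ratio scaling moved Pmpcb to -0.50 for LPS and -0.62 for LPS+XJDHT, and Tomm20 to 0.37 for LPS+XJDHT.

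**Figure D2:**
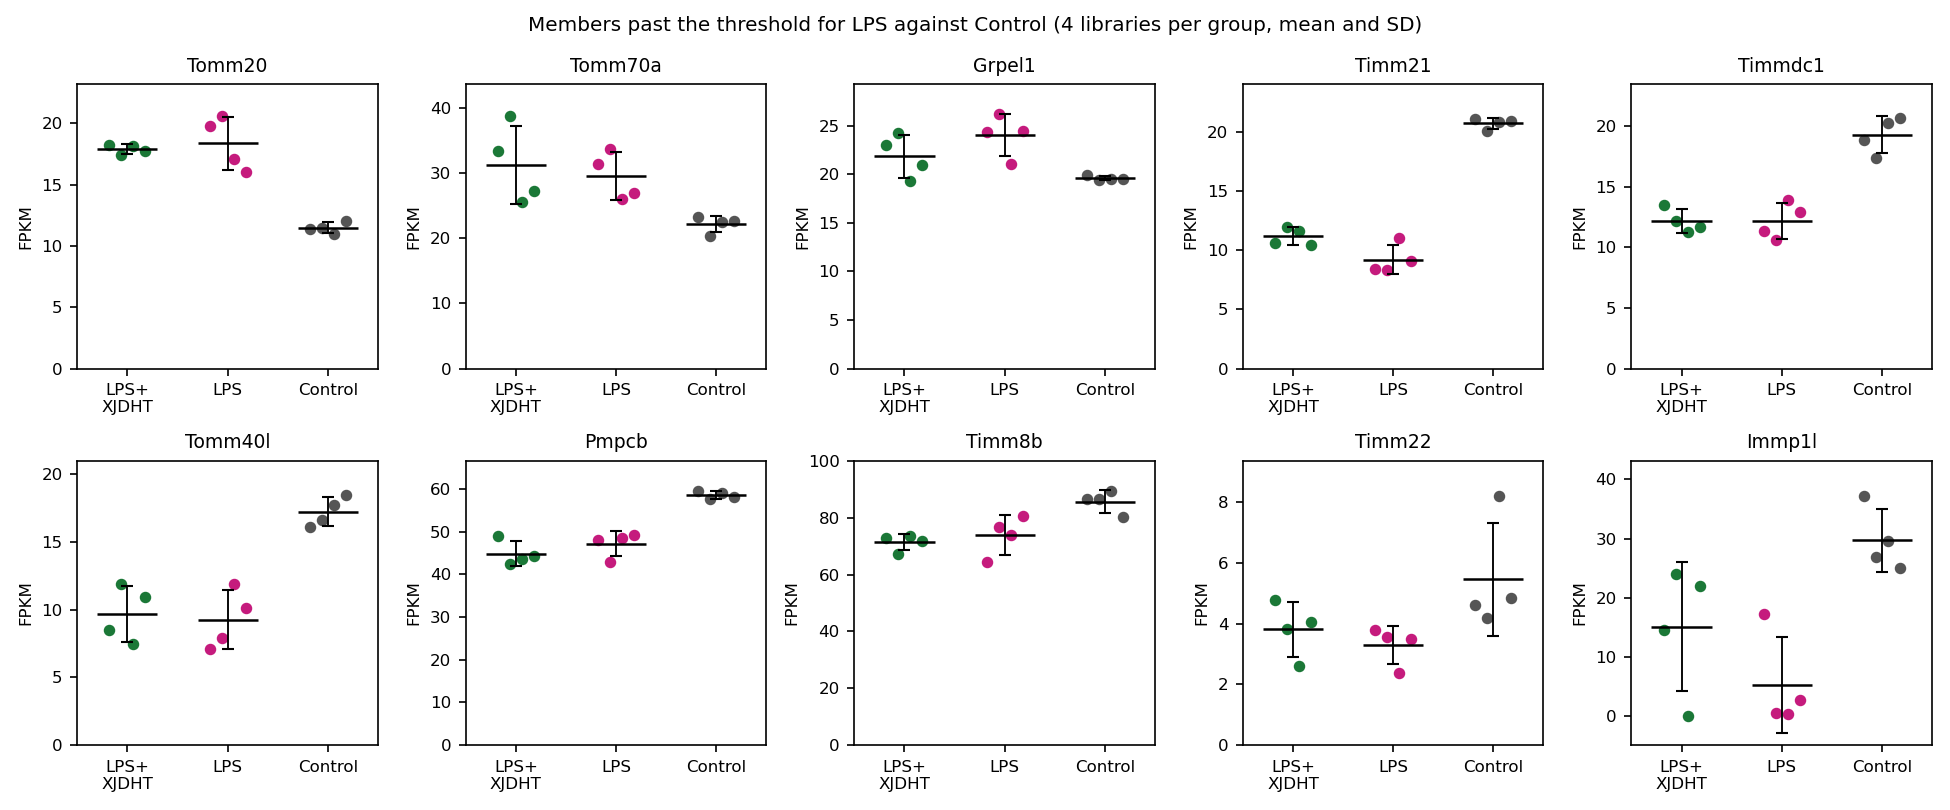
FPKM in each library for the 10 members past the threshold for LPS against Control, with points for libraries and bars for the mean and SD of 4 hearts. Both groups given lipopolysaccharide lie on the same side of Control for Tomm20, Timm21, Timmdc1, Tomm40l and Pmpcb, and Immp1l is listed at 0 in 1 LPS+XJDHT heart.

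Whether the decoction changed these genes in hearts given lipopolysaccharide was addressed by comparing LPS+XJDHT with LPS. No member passed the threshold in limma, where 0.113% of all genes did, 0 higher and 13 lower. Limma-voom on recovered fragments called 0 members too. No member's levels were free of overlap between the 2 groups, beside 1.95% of all genes that were higher and 0.860% that were lower. The 3 with the smallest p were Timm21, with a log2 fold change of 0.26 ± 0.10, Timm17b, at -0.27 ± 0.11, and Tomm6, at 0.47 ± 0.20, each with a limma adjusted p of 0.99. Timm17b, one of the channel partners of Timm23, had 5.18, 5.59, 5.06 and 6.11 FPKM in LPS+XJDHT, 6.70, 5.70, 7.39 and 7.50 FPKM in LPS and 7.23, 7.39, 6.56 and 6.73 FPKM in Control. LPS 2 fell among the LPS+XJDHT hearts. Tomm6, a small subunit that steadies the TOM pore, had 11.6, 10.6, 24.3 and 13.1 FPKM in LPS+XJDHT, 10.0, 8.68, 9.73 and 11.4 FPKM in LPS and 9.37, 8.89, 8.28 and 9.07 FPKM in Control. LPS+XJDHT 3 was far above the rest, and the lowest LPS+XJDHT heart lay below LPS 4. Data were also simulated with normal noise, its spread per gene pooled over all 3 groups. The genes made to change had a mean log2(FPKM + 1) of at least 2. In these data the comparison of 11509 genes called 63 of 100 genes with a true log2 change of 1 and 91 of 100 with a true change of 2. The log2 fold changes of Timm21, Timm17b and Tomm6 lie below those sizes. The simulated data held 200 changed genes, whereas the real comparison called 13. Adjusted p depends on how many genes change, so these shares do not give the chance of a call in the real comparison.

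LPS+XJDHT was also compared with Control; this shares its Control hearts with the comparison above, so each has its own values and the likeness of the 2 is no separate result. Of the members, 3 rose (Tomm20, Tomm70a and Tomm6) and 7 fell (Timm21, Timmdc1, Pmpcb, Tomm40l, Immp2l, Timm8b and Timm17b), which is 28.6%, beside 39.2% of all genes. By direction, 28.5% of all genes rose and 10.7% fell. The median log2 fold change of the members was -0.05, beside 0.19 for all genes. Under median-ratio scaling 1 member rose and 13 fell, with a median of -0.28, beside 17.1% of all genes that rose and 17.8% that fell. Levels did not overlap for 4 members higher in LPS+XJDHT and 9 lower, beside 30.2% and 11.9% of all genes. Without Control 3 only 4 members fell. Without LPS+XJDHT 2, the heart with little RNA from the Y chromosome, 3 rose and 5 fell, since Timm8b and Timm17b were lost (limma adjusted p = 0.055 and 0.062).

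Log2 fold changes for LPS+XJDHT against Control were 0.60 ± 0.09 for Tomm20, -0.84 ± 0.10 for Timm21, -0.63 ± 0.10 for Timmdc1, -0.38 ± 0.07 for Pmpcb and -0.79 ± 0.17 for Tomm40l, with limma adjusted p between 6.6e-05 and 0.0034. Tomm20 and the pore paralog thus kept their opposite directions in the hearts that also had the decoction. Tomm70a rose by 0.46 ± 0.13 (limma adjusted p = 0.017), a call lost under median-ratio scaling (0.22, limma adjusted p = 0.21). Timm8b fell by 0.26 on the log2 scale (limma adjusted p = 0.022; -0.50 under median-ratio scaling) and was lost without any 1 of Control 1, Control 3 or LPS+XJDHT 2 (limma adjusted p 0.052 to 0.060). Grpel1, Immp1l and Timm22 did not pass here, with log2 fold changes of 0.14, -1.64 and -0.41. That these 3 passed for LPS and not for LPS+XJDHT does not show a difference between those groups, where their limma adjusted p was at least 0.99.

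Members that passed only against Control in LPS+XJDHT hearts were Immp2l, Tomm6 and Timm17b. Immp2l, the second catalytic subunit of the inner membrane peptidase, had 9.16, 9.06, 11.7 and 10.9 FPKM in LPS+XJDHT, 10.8, 10.9, 13.4 and 12.5 FPKM in LPS and 13.8, 13.3, 15.5 and 12.3 FPKM in Control. LPS hearts overlapped with both of the other groups. Its log2 fold change was -0.40 ± 0.11 (limma adjusted p = 0.017), lost without Control 3 or LPS+XJDHT 1 (limma adjusted p = 0.052 and 0.051), with limma-voom (-0.37, adjusted p = 0.078) and with protein-coding transcripts only (-0.26, limma adjusted p = 0.12). Under median-ratio scaling it was -0.62. Timm17b, at -0.30 ± 0.11 (limma adjusted p = 0.041), was lost without any 1 of Control 1 to 4 or LPS+XJDHT 1 to 3 (limma adjusted p 0.056 to 0.098), with limma-voom (adjusted p = 0.081) and with protein-coding transcripts only (limma adjusted p = 0.11). Under median-ratio scaling it was -0.51. Tomm6, at 0.61 ± 0.20 (limma adjusted p = 0.032), was lost under median-ratio scaling (0.39, limma adjusted p = 0.17), in a fit of the 2 groups alone, with limma-voom, and without any 1 of Control 1 to 4 (limma adjusted p 0.055 to 0.073). Without LPS+XJDHT 3, its highest heart, the change was 0.37 (limma adjusted p = 0.028).

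Within each library 5 pairs of paralogs or partner subunits were compared, each as the log2 ratio of (FPKM + 1). The added 1 weighs on the ratio where a level is low, as for Immp1l. The ratio of the pore gene Tomm40 to its paralog Tomm40l was 0.99 ± 0.27 in LPS+XJDHT and 1.08 ± 0.32 in LPS, against -0.07 ± 0.07 in Control (SD, n = 4 each). In Control hearts both genes were thus at about the same level, and in the other 8 hearts the ratio ranged from 0.67 to 1.35, above all Control values. Against Control it was higher by 1.06 in LPS+XJDHT and by 1.15 in LPS, each at the smallest p that 4 against 4 allows (exact permutation test, two-sided, p = 0.029, adjusted over 15 tests 0.086).

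The ratio of Pmpca to Pmpcb, the partner subunits of the matrix peptidase, was -0.17 ± 0.11 in LPS+XJDHT and -0.32 ± 0.04 in LPS, against -0.68 ± 0.02 in Control. It did not overlap with Control in either group, and the differences from Control, 0.51 for LPS+XJDHT and 0.36 for LPS, had the same exact permutation p and adjusted p. LPS+XJDHT stood 0.15 above LPS (exact permutation p = 0.0571, adjusted 0.143), with LPS+XJDHT 1 among the LPS hearts. Immp1l to Immp2l was -0.20 ± 2.33 in LPS+XJDHT, -1.86 ± 1.77 in LPS and 1.05 ± 0.21 in Control, and LPS differed from Control at the same smallest p. The difference of LPS+XJDHT from Control, -1.25, was -2.05 with a pseudocount of 0.1 and -0.09 without LPS+XJDHT 3, and did not pass. The pairs of Timm17 and Mtx had differences between groups of 0.04 to 0.29 with exact permutation p of 0.171 or more. With 15 tests no ratio passed an adjusted p of 0.05.

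**Figure D3:**
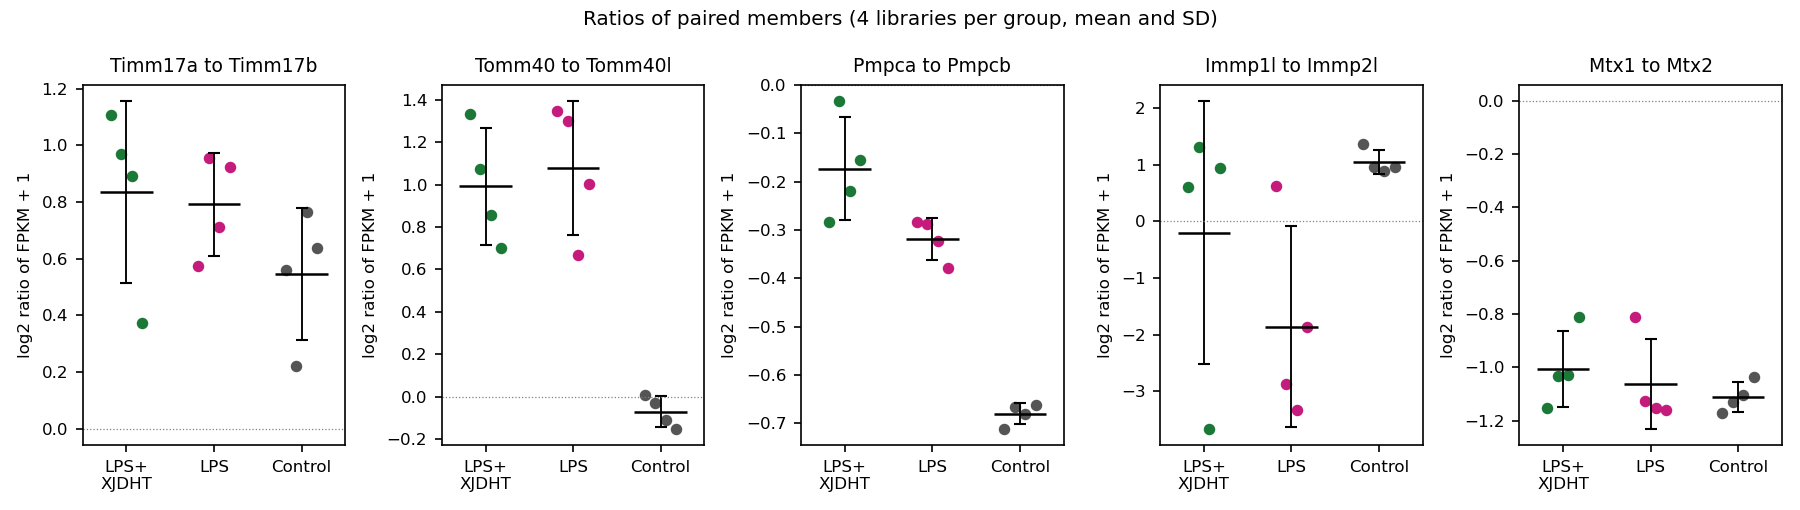
Log2 ratio of (FPKM + 1) for 5 pairs of members in each library, with the mean and SD of 4 hearts and a dotted line at a ratio of 1. Tomm40 to Tomm40l and Pmpca to Pmpcb lie above Control in all 8 hearts given lipopolysaccharide, and Immp1l to Immp2l spreads over several log2 units in both of those groups.

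Besides Immp1l, the hearts of a group lay far apart for Timm29, Timm23, Tomm5, Timm50 and Tomm7, of which Timm50 and Tomm7 were picked after their values were seen. Timm29, the scaffold of the TIM22 complex, had 0.505, 19.7, 18.8 and 17.3 FPKM in LPS+XJDHT, 22.0, 0.308, 15.8 and 12.7 FPKM in LPS and 15.6, 14.1, 20.0 and 18.4 FPKM in Control. LPS+XJDHT 1 and LPS 2 were thus near 0, while no Control heart was. Timm23 had 62.8, 61.0, 31.6 and 60.9 FPKM in LPS+XJDHT, 35.8, 29.3, 65.7 and 72.6 FPKM in LPS and 69.0, 83.2, 80.2 and 19.2 FPKM in Control, so each group holds at least 1 low heart. Genes nearly identical to Timm23 were also listed, Gm10273 (99.9% over 1121 bases) and the processed pseudogenes Gm10171 and Gm10233 (no mismatch over 628 bases), and reads may be split among them. Gm10273 had 17.0 to 22.6 FPKM in LPS+XJDHT, 18.6 to 22.5 FPKM in LPS and 23.1 to 25.6 FPKM in Control.

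Tomm5, a small subunit of the TOM pore, had 58.4, 72.9, 47.2 and 55.3 FPKM in LPS+XJDHT, 56.0, 74.0, 21.4 and 52.4 FPKM in LPS and 19.7, 87.5, 91.3 and 25.0 FPKM in Control. The Control hearts fell into a high and a low pair. A single transcript, Tomm5-204, carried this, at 5.77, 74.3, 78.5 and 2.92 FPKM in Control. Timm50, the presequence receptor of TIM23, ranged from 8.43 to 10.9 FPKM in LPS+XJDHT, from 4.15 to 19.8 FPKM in LPS and from 7.74 to 19.0 FPKM in Control. Tomm7, which tunes TOM assembly, ranged from 21.2 to 27.2 FPKM in LPS+XJDHT, from 6.89 to 25.2 FPKM in LPS and from 23.4 to 26.4 FPKM in Control, with LPS 3 alone far below the others.

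**Figure D4:**
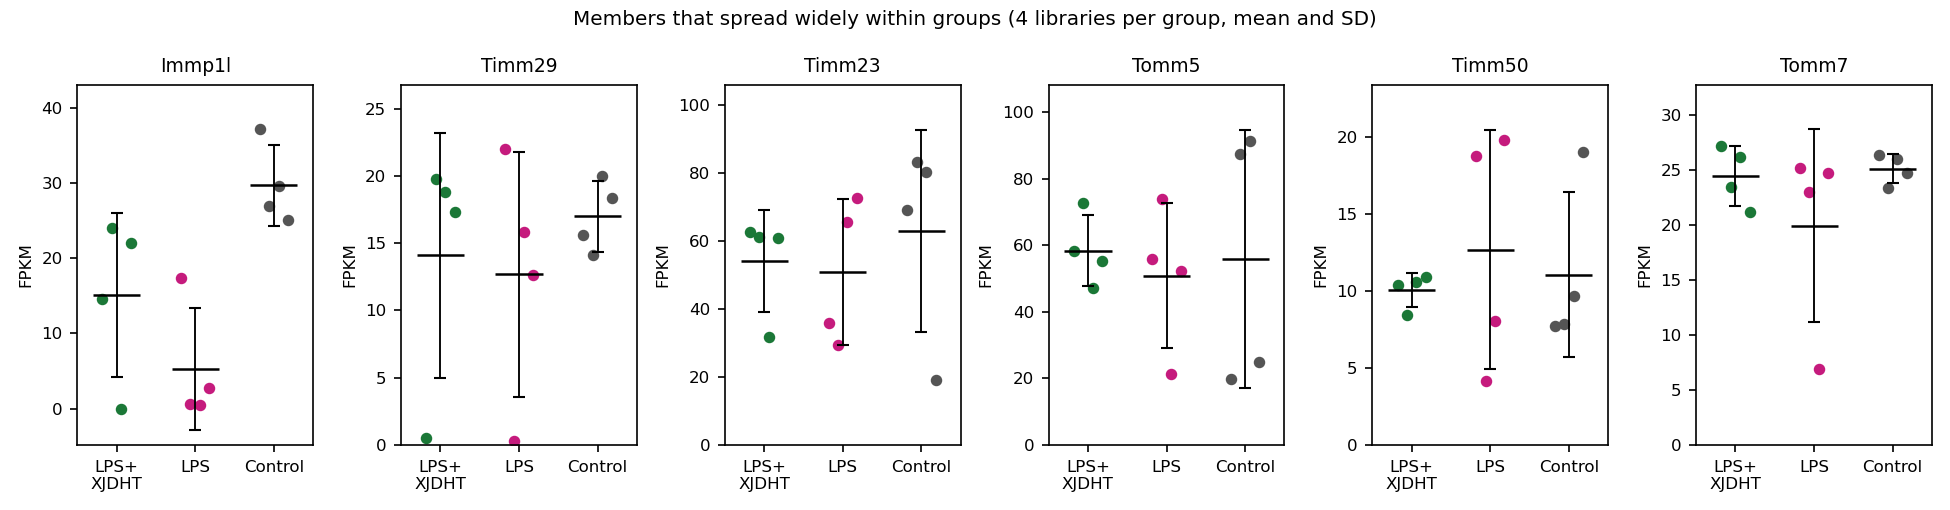
FPKM in each library for 6 members with a wide spread within groups, with the mean and SD of 4 hearts. Single hearts stand near 0 for Timm29 (0.505 FPKM in LPS+XJDHT 1 and 0.308 FPKM in LPS 2), and Control hearts split into pairs for Tomm5.

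The gene sums rest on 86 member transcripts, of which 55 are annotated as protein-coding and 28 as retained intron. At transcript level 64 were tested. For LPS against Control limma called 3 higher and 6 lower, beside 17.3% and 8.26% of all 18644 transcripts. For LPS+XJDHT against LPS it called 0, beside 0.0107% higher and 0.0858% lower. For LPS+XJDHT against Control it called 4 higher and 5 lower, beside 18.6% and 7.35%. Tomm70a-201, Grpel1-201, Timm8b-201 and both tested coding transcripts of Timm22 did not pass for LPS (limma adjusted p 0.056 to 0.18), nor did Tomm40l-203 for LPS+XJDHT (-0.85 ± 0.30, limma adjusted p = 0.061) or any tested transcript of Tomm6, Immp2l or Timm17b, although the sums of these genes did. Tomm70a, Grpel1 and Timm8b have 1 listed transcript each, so transcript and sum hold the same values. For them only the fit across transcripts and its adjustment differ. Transcripts of 3 genes passed whose sums did not. Samm50-201, the coding transcript of the beta-barrel channel, had 24.7, 28.4, 27.1 and 26.8 FPKM in LPS+XJDHT, 30.0, 27.5, 35.3 and 31.0 FPKM in LPS and 39.6, 36.4, 39.5 and 39.6 FPKM in Control. Both groups lay below Control, with log2 fold changes of -0.52 ± 0.09 for LPS+XJDHT (limma adjusted p = 0.0018) and -0.32 ± 0.09 for LPS (limma adjusted p = 0.024). The retained-intron transcript Samm50-205 had 7.82 to 12.6 FPKM in LPS+XJDHT, 0.132 to 10.1 FPKM in LPS and 0.376 to 10.2 FPKM in Control, and entered the gene sum.

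Tomm34-201 had 5.44, 4.43, 5.79 and 6.33 FPKM in LPS+XJDHT, 4.86, 4.51, 5.45 and 4.33 FPKM in LPS and 2.57, 3.67, 2.15 and 4.12 FPKM in Control. It rose in LPS+XJDHT (0.67 ± 0.17, limma adjusted p = 0.015) and in LPS (0.51 ± 0.17, limma adjusted p = 0.0497), while the other coding transcript, Tomm34-202, had a log2 fold change of -0.84 ± 0.35 in LPS+XJDHT and -0.50 ± 0.35 in LPS and did not pass. Mtx2-202, a retained-intron transcript of the metaxin gene, had 2.77, 1.75, 2.31 and 2.12 FPKM in LPS+XJDHT, 2.93, 2.40, 2.48 and 1.52 FPKM in LPS and 0.164, 0.658, 0.441 and 1.42 FPKM in Control. Its log2 fold change against Control was 1.00 ± 0.23 in LPS+XJDHT (limma adjusted p = 0.0089) and 1.03 ± 0.23 in LPS (limma adjusted p = 0.0076), and the coding Mtx2-201 did not pass. The high Tomm6 sum of LPS+XJDHT 3 came from Tomm6-202, at 14.5 FPKM there and 0.121 to 0.907 FPKM in the other 11 libraries, while Tomm6-201 had 8.98 to 11.7 FPKM in LPS+XJDHT, 6.96 to 10.3 FPKM in LPS and 7.40 to 8.47 FPKM in Control. Of the Tomm6 exon bases, 76.0% also belong to Gm21981 on the same strand, so reads cannot be assigned to Tomm6 alone. Gm21981 had 8.22, 9.10, 3.07 and 7.82 FPKM in LPS+XJDHT, 8.52, 6.18, 7.73 and 9.52 FPKM in LPS and 5.19, 6.32, 6.46 and 5.44 FPKM in Control. It was thus lowest of all 12 in LPS+XJDHT 3, the heart with the highest Tomm6 sum.

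**Figure D5:**
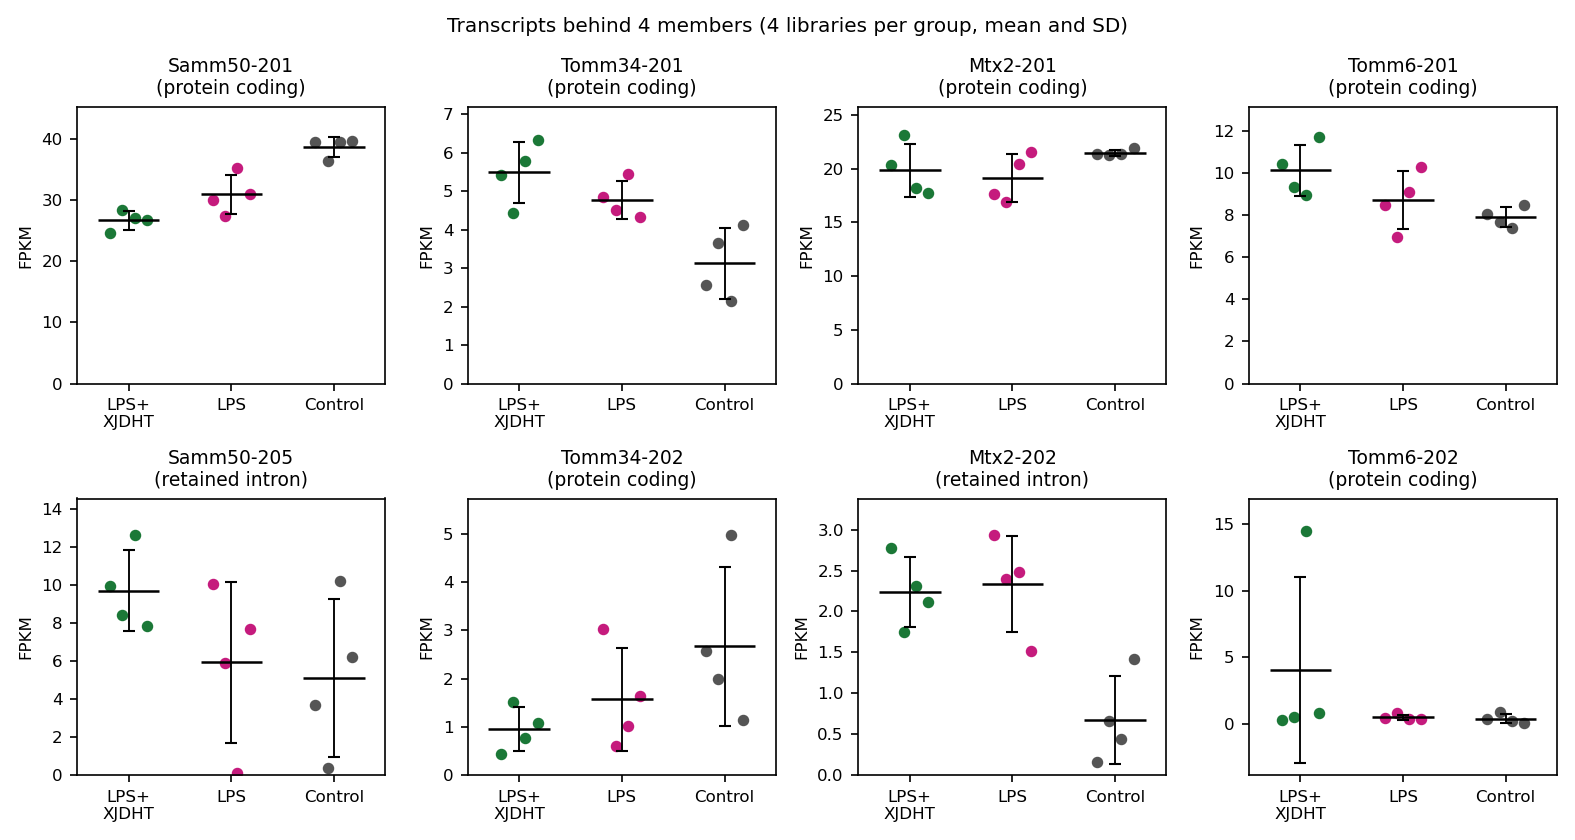
FPKM in each library for 8 transcripts of Samm50, Tomm34, Mtx2 and Tomm6, with the mean and SD of 4 hearts. Samm50-201 is lowest in LPS+XJDHT and highest in Control, Mtx2-202 is above 1.5 FPKM in all hearts given lipopolysaccharide, and 1 heart carries the mean of Tomm6-202.

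Tomm20 has near copies as well. The processed pseudogene Gm14494, 99.5% identical to Tomm20 over 435 bases, had 12.7 to 14.6 FPKM in LPS+XJDHT, 11.9 to 15.8 FPKM in LPS and 9.69 to 11.3 FPKM in Control. It rose too, by 0.36 ± 0.10 in LPS+XJDHT (limma adjusted p = 0.015) and by 0.40 ± 0.10 in LPS (limma adjusted p = 0.0080) on the log2 scale. The split of reads between the 2 genes is uncertain.

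A further 24 mitochondrial genes, none of them members, moved both ways too when libraries were not rescaled. They hold chaperones and insertion factors of the route. They also hold proteases such as Lonp1, Clpp, Yme1l1, Oma1 and Afg3l2, the prohibitins Phb and Phb2, and Aifm1. For LPS against Control 4 rose and 3 fell (29.2%, beside 38.6% of all genes). The 4 that rose were Cox18, Yme1l1, Phb2 and Afg3l2. Hearts of a group lay far apart for Phb2, which averaged 19.3 ± 15.9 FPKM in LPS+XJDHT, 46.3 ± 8.79 FPKM in LPS and 14.1 ± 16.7 FPKM in Control. Of the 24, 4 rose and 4 fell for LPS+XJDHT against Control (33.3%, beside 39.2% of all genes). Under median-ratio scaling 2 of the 24 rose and 8 fell for LPS against Control, beside 18.6% and 18.4% of all genes. With the same scaling 0 rose and 10 fell for LPS+XJDHT against Control, beside 17.1% and 17.8% of all genes. For LPS+XJDHT against LPS 0 of the 24 were called, beside 0.113% of all genes. Hspe1, the co-chaperonin that folds imported proteins, averaged 70.1 ± 2.15 FPKM in LPS+XJDHT, 70.6 ± 5.10 FPKM in LPS and 103 ± 4.90 FPKM in Control, and fell for LPS (-0.54 ± 0.07, limma adjusted p = 0.00014). Mtx3, Dnajc15 and Cox18 came next by adjusted p for LPS against Control. Their log2 fold changes were -0.52 ± 0.11, -0.52 ± 0.13 and 0.83 ± 0.21 (limma adjusted p = 0.0039, 0.0077 and 0.0077). Yme1l1, an inner membrane protease, averaged 19.5 ± 1.16 FPKM in LPS+XJDHT, 18.1 ± 2.03 FPKM in LPS and 14.1 ± 0.566 FPKM in Control. It rose for LPS (0.33 ± 0.09, limma adjusted p = 0.015). Hspa9, the Hsp70 of the import motor, averaged 186 ± 20.0 FPKM in LPS+XJDHT, 181 ± 9.19 FPKM in LPS and 201 ± 9.62 FPKM in Control (SD, n = 4 each) and did not pass (LPS against Control -0.15 ± 0.08, limma adjusted p = 0.16). Larger sets that depend on import stood as follows for LPS against Control: of 50 complex I genes tested 0 rose and 29 fell (median change -0.36 on the log2 scale), and of 82 mitochondrial ribosomal protein genes 7 rose and 28 fell (median -0.20). Of the 35 import members 3 rose and 7 fell (median -0.00), and of all genes 26.6% rose and 12% fell (median 0.16). Under median-ratio scaling 0 complex I genes rose and 39 fell, 4 ribosomal protein genes rose and 39 fell, and 1 import member rose and 11 fell, beside 18.6% and 18.4% of all genes. The lists were not tested against each other.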

How the data were processed

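Ribosomal RNA was removed from total RNA of mouse hearts and 12 libraries were sequenced, 4 per group as the labels assign them. The deposited values, 1 per transcript and library, are FPKM as made by the authors. The unit was read from the values, since value times annotated length is a whole multiple (within 0.1) of 1 constant per library for 98.5% to 98.7% of values. The submitters' processing notes name build mm10 and limma; no aligner is named in the sources used here. Of 36293 transcripts listed for Control and LPS and 35802 for LPS+XJDHT, 33137 are in both. FPKM was summed per gene over the 24723 of these in the GENCODE annotation of GRCm38; transcripts without an Ensembl identifier were left out.

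Genes that reached 1 FPKM in 4 libraries or more were fitted with limma 3.58.1 (R 4.3.3, empirical Bayes with trend) on log2(FPKM + 1), 1 mean per group, two-sided, adjusted p below 0.05. The pseudocount of 1 understates changes of low genes. Ratios were compared by exact permutation of libraries. Python 3.11.15 with pandas 2.3.3, NumPy 2.4.6 and matplotlib 3.10.9 did the rest. Alternatives were pseudocounts of 0.1 and 0.5, no filter, a minimum of 5 FPKM, the compared groups alone, median-ratio scaling, limma-voom on fragments recovered from the values, protein-coding transcripts only, every transcript listed for Control and LPS, and leaving out each library. Simulated data with 200 changed genes were used to check the fit, which called 5 to 11 other genes. Near copies were aligned transcripts with at least 95% identity over at least 200 bases. Named with values in every library are the members past the threshold against Control and the most abundant member of each role. The 3 members with the smallest p for LPS+XJDHT against LPS are named so too. Tomm40, Immp2l, Yme1l1, Hspa9 and the transcripts shown were picked after their values were seen. The members, lists and tests were chosen with earlier results of these data known. Replicate numbers only name the libraries. P-values of limma set differences between group means against the spread between these hearts. Those of the ratios come from exchanging hearts between the groups.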

Additional observations from a re-analysis of the deposited data

Results flagged for a closer look

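In groups of 4 hearts, a heart was picked out when its gap to the nearest other heart, divided by the range of its group, was above Dixon's critical value at the 95% level. Of 105 groups (35 genes in 3 groups) 8 were picked out, and chance alone picks out about 1 in 20. In LPS hearts these were Immp1l, high at 17.3 FPKM in LPS 1, Pmpcb, low at 42.9 FPKM in LPS 2, and Tomm7, low at 6.89 FPKM in LPS 3. In LPS+XJDHT hearts they were Timm23, low at 31.6 FPKM in heart 3, and Timm29, low at 0.505 FPKM in heart 1. In Control hearts they were Mtx1, high at 11.6 FPKM in Control 4, Timm22, high at 8.22 FPKM in Control 3, and Timm50, high at 19.0 FPKM in Control 4. A further value stands outside the gene sums: the transcript Tomm5-203 is listed in the LPS+XJDHT files and not in the others, so it entered no comparison. It had 0.110, 0.124, 2.98 and 0.157 FPKM in hearts 1 to 4, each above the 0.0522 to 0.0551 FPKM that 3 fragments give there, and heart 3 was the highest.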

How the results depend on the processing

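Of 409 values recomputed for summary counts and ratios, 380 kept their direction and size or side of the threshold, and of 409 for single called genes 330 did, with 79 calls lost and 0 reversed. Median-ratio scaling moved most: for LPS against Control 2112 genes and 11 members fell and 1 member rose, and for LPS+XJDHT against Control 1967 genes rose, 2044 fell, 1 member rose and 13 fell. For LPS+XJDHT against LPS, 1 gene rose with a pseudocount of 0.1, 2 rose and 41 fell with no filter, and 1 fell with a minimum of 5 FPKM. The difference of LPS+XJDHT from LPS in the ratio of Mtx1 to Mtx2 turned to -0.071 with protein-coding transcripts only. The cause of these shifts was not tested. Leaving out 1 library gave 1 to 4 members that rose and 4 to 7 that fell for LPS against Control, 2 to 4 and 4 to 7 for LPS+XJDHT against Control, and, for LPS+XJDHT against LPS, 0 to 2 genes that rose, 3 to 15 that fell and 0 members. Timm22 was not tested with the minimum of 5 FPKM. No paired analysis was possible because the labels carry no replicate numbers; the numbers 1 to 4 used here follow the order of the samples and only name the libraries. Depth was even across libraries; low members such as Timm22, at 395 fragments in its lowest library, carry more counting error.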

Other observations

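Summed over the 35 members, expression was 756 ± 57.6 FPKM in LPS+XJDHT, 737 ± 35.7 FPKM in LPS and 820 ± 63.5 FPKM in Control hearts (SD, n = 4 each). The 4 presequence peptidases summed to 110 ± 11.6 FPKM in LPS+XJDHT, 102 ± 10.7 FPKM in LPS and 138 ± 6.83 FPKM in Control, and the 9 TOM genes to 212 ± 19.2, 193 ± 32.5 and 194 ± 37.9 FPKM in LPS+XJDHT, LPS and Control. These sums were not tested.

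Transcripts of 2 further members stood out in single hearts. Timm13-204, of the small TIM chaperone, was at 9.30 and 9.84 FPKM in LPS 1 and LPS 3, at 0.722 FPKM in LPS 2 and listed at 0 in LPS 4, was at 0.575 to 0.635 FPKM in LPS+XJDHT 1 to 3 and listed at 0 in LPS+XJDHT 4, and was listed at 0 in the Control hearts. Timm44-201, of the motor's anchor, had 11.6, 18.6, 8.63 and 16.8 FPKM in LPS+XJDHT, 15.8, 19.2, 18.6 and 7.83 FPKM in LPS and 10.8, 23.5, 11.9 and 14.9 FPKM in Control. Timm44-206 had 6.00, 2.20, 6.17 and 3.71 FPKM in LPS+XJDHT, 3.16, 2.02, 1.44 and 7.94 FPKM in LPS and 9.58, 1.69, 10.4 and 9.08 FPKM in Control, so that the heart highest in Timm44-201 in LPS+XJDHT and in Control was the lowest of its group in Timm44-206, while the gene sum stayed at 16.9 to 28.6 FPKM. Both transcripts were picked after their values were seen.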
